A study of Mus musculus with 43 samples.

Results

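The genes described here encode mTOR, the kinase at the centre of nutrient-dependent growth control, and the proteins through which it is assembled, restrained and linked to protein synthesis. They were taken by name: every entry of the expression table called Mtor, Rptor, Rictor, Deptor, Tsc1, Tsc2, Rheb, Rps6kb1, Eif4ebp1 or Eif4ebp2, which gave 10 of 42349 entries. Each of the 10 genes had 1 entry of its own, shared with no other gene symbol. RNA with a poly A tail was sequenced from liver, brain, inguinal white adipose tissue (WAT) and skeletal muscle of female mice at 15 months of age. Wild-type mice (WT, Irs1+/+) and mice labelled as lacking insulin receptor substrate 1 in the whole body (KO, Irs1-/-) were either fed ad libitum (AL) or kept on 30% dietary restriction (DR) for 12 months. DR was brought in stepwise from 10 weeks of age and DR mice were given their food once a day, in the late afternoon. The 4 groups are WT_AL, WT_DR, KO_AL and KO_DR, and in 4 tissues they make 16 groups with 43 libraries in the labels, 2 per tissue for WT_AL and 3 for the others, except that WT_DR WAT has 2.

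mTOR works in a pair of complexes. In mTORC1 the scaffold raptor (Rptor) brings in substrates such as the S6 kinase S6K1 (Rps6kb1) and the 4E-BP proteins (Eif4ebp1, Eif4ebp2), which hold the cap-binding factor eIF4E until they are phosphorylated. In mTORC2 rictor (Rictor) directs the kinase to AKT and SGK. The small GTPase Rheb switches mTORC1 on at the lysosome, the TSC complex (Tsc1 and Tsc2) switches Rheb off, and DEPTOR (Deptor) binds and restrains mTOR itself. Insulin, acting in part through IRS1, amino acids and energy stress all feed into this pathway, and most of that control is by phosphorylation, which RNA levels do not show.

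The RNA levels of Rptor and Eif4ebp2 ran in opposite directions across tissues, while Mtor was the gene with the smallest share of its variance between tissues. The 250 bases before the RefSeq start of these genes are therefore shown, 5′ to 3′ on the strand of the gene, from the RefSeq promoter table for GRCm38.p6. Capitals mark the letters CCAAT and GGGCGG, searched on both strands, which stand at least once in 33.8% and 32.7% of the 32851 windows of the same length. The windows are chr4:148448332-148448581 (plus strand) for Mtor, chr11:119602655-119602904 (plus strand) for Rptor and chr10:61452670-61452919 (minus strand) for Eif4ebp2.
Mtor: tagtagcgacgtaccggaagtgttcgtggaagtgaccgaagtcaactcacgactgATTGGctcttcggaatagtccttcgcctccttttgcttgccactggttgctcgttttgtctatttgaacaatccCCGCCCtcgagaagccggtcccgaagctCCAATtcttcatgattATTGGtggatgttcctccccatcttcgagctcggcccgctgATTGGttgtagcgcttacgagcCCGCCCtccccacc
Rptor: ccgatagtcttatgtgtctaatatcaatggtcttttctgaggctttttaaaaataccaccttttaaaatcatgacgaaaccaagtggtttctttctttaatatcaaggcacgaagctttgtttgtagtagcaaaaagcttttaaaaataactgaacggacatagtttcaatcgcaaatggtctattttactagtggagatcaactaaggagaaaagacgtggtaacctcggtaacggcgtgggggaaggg
Eif4ebp2: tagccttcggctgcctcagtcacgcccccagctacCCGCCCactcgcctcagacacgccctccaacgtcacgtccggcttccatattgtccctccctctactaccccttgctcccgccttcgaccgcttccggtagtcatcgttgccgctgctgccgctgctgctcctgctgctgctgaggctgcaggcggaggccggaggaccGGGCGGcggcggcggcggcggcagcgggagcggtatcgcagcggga
The Mtor window holds 4 matches to CCAAT and 2 to GGGCGG, and 54.4% of its bases are G or C. That of Eif4ebp2 holds 2 matches to GGGCGG and none to CCAAT, and 70.0% of it is G or C. The Rptor window holds neither set of letters and has the lowest share of G and C among the 8 genes with a window in the table, 37.6%. These are descriptions of sequence only.

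Expression is given in FPKM, fragments scaled to transcript length and to the fragments mapped, of which the deposited table holds 1 value per gene and group, pooled over the libraries of that group, with the authors' 95% interval. The depth of each library is therefore unknown and no spread between mice can be given. For the 160 values of the 10 genes, the SD derived from these intervals ran from 10.1% to 93.1% of the FPKM, with a median of 33.8%. RNA of Irs1, the targeted gene, was not lacking in the groups labelled KO. Its FPKM lay between 2.58 and 6.31 in the groups labelled KO and between 1.62 and 6.56 in those labelled WT. In liver, muscle and brain both groups labelled KO stood above both labelled WT. The FPKM in WT_AL, WT_DR, KO_AL and KO_DR was 2.47, 1.62, 3.49 and 4.14 in brain, and 2.47, 6.56, 5.37 and 2.58 in WAT. These Irs1 differences were not tested. These RNA values do not show whether IRS1 protein was made, and the authors describe genotyping of the mice. Genotype directions below are those of the labelled groups. Summed tissue markers (6 genes each) followed the labelled tissue, at 36256 to 96804 FPKM for liver, 79274 to 116956 for muscle, 2524 to 5806 for brain and 13184 to 21588 for adipose in their own tissue. In bulk tissue, a change in the share of a cell type and a change of RNA per cell cannot be told apart.

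For 9 of the 10 genes, more of the variance of expression lay between tissues than between the groups of mice within a tissue, by margins that differed widely, and for Mtor slightly less did. The FPKM values spanned 0.802, for Rictor in KO_DR WAT, to 333, for Eif4ebp1 in WT_DR WAT. Tissue pairs were compared with limma on log2(FPKM + 0.1), using the 16 group values with the genotype and diet group as a block, so that each tissue has 4 values, which are pooled groups and not mice. In these tests 45 of 60 comparisons of a gene between tissues passed an FDR of 10%. Over all 16807 entries fitted, the share that passed was 80.9% for brain against liver, 77.1% for brain against muscle, 76.0% for brain against WAT, 66.4% for liver against muscle, 65.2% for liver against WAT and 63.6% for muscle against WAT, so the count for the 10 genes was near that of the table as a whole. The median difference of all entries was itself off 0 by more than 0.1 on the log2 scale in brain against liver (0.14), liver against WAT (-0.18) and muscle against WAT (-0.27). In WT_AL alone, by the authors' intervals, every tissue call for Mtor, Rptor, Tsc2, Rheb and Rps6kb1 was lost. Those of Rictor in brain against liver and against WAT were lost as well. So were those of Deptor in muscle against WAT and of Eif4ebp2 in liver against muscle and against WAT. Tsc1 kept only its call for brain against WAT.

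**Figure D1:**
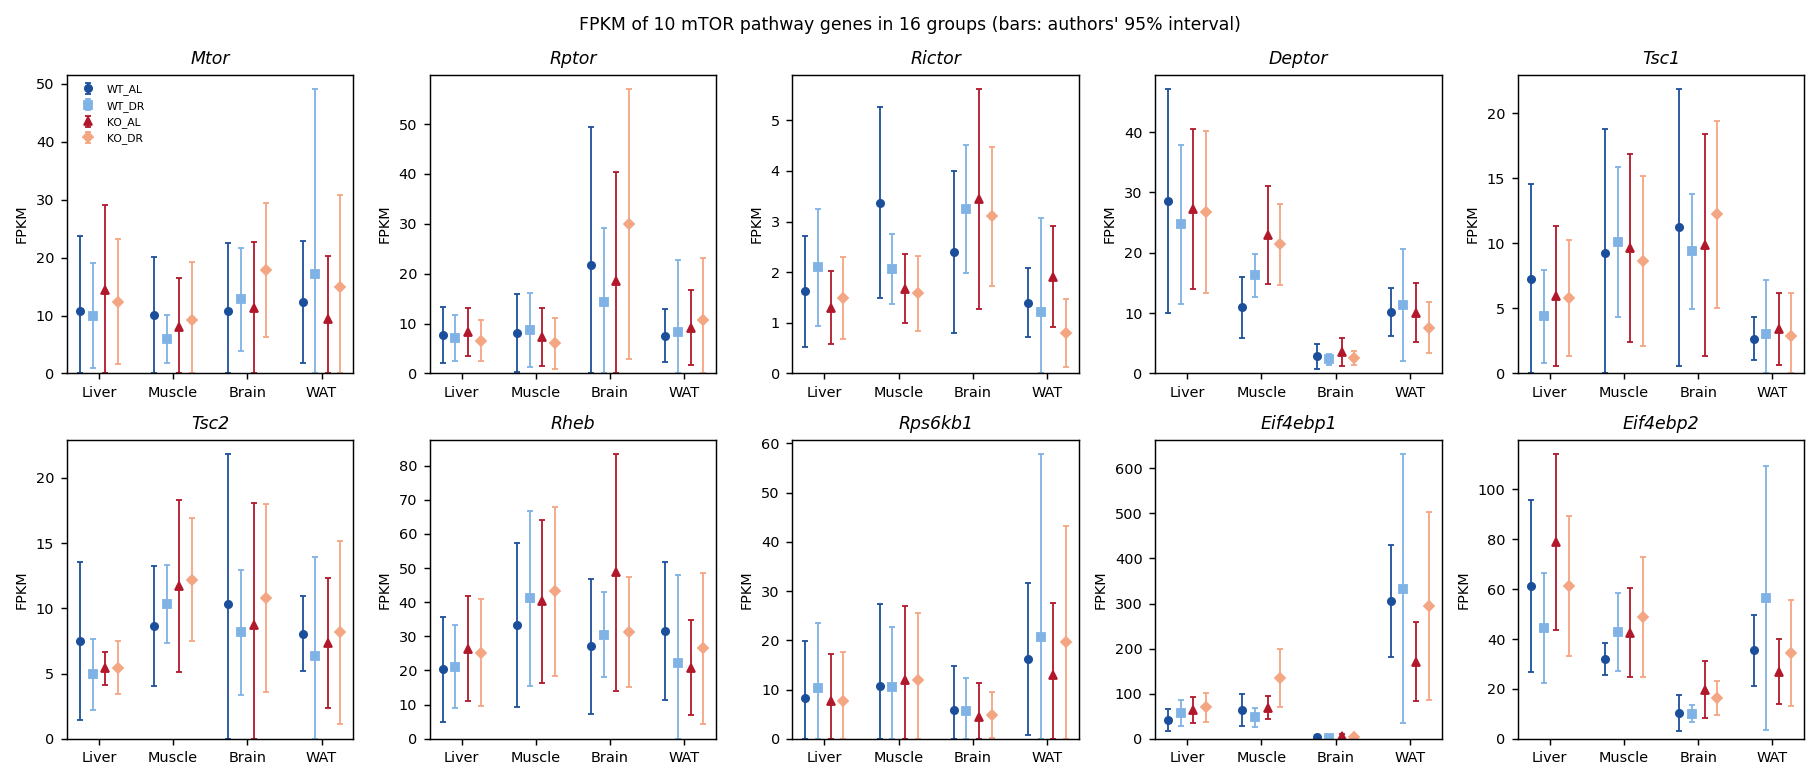
FPKM of the 10 genes (one panel each, linear axis from 0) in liver, muscle, brain and WAT, with a point for each of the 4 groups and bars for the authors' 95% interval. Eif4ebp1 stands at 171 to 333 FPKM in WAT and at 2.51 to 6.35 in brain, while the Mtor points span 5.88 to 17.8 and overlap between tissues except for muscle and brain.

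The share of the variance of log2(FPKM + 0.1) that lay between tissues ranged from 49.0% for Mtor to 96.3% for Eif4ebp1, against a median of 87.2% over all fitted entries. Rictor (64.0%), Rheb (65.3%), Tsc2 (76.9%), Eif4ebp2 (84.6%) and Rptor (85.7%) lay below that median as well. Rps6kb1 (92.5%), Tsc1 (94.7%) and Deptor (95.6%) lay above it.

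Mtor lies on chromosome 4 (148448611 to 148557683, plus strand, GRCm38) and encodes the kinase subunit of both complexes. Its FPKM in WT_AL, WT_DR, KO_AL and KO_DR was 10.8, 9.96, 14.4 and 12.4 in liver, 10.1, 5.88, 8.03 and 9.30 in muscle, 12.4, 17.2, 9.33 and 14.8 in WAT, and 10.7, 12.8, 11.3 and 17.8 in brain. Muscle was the tissue with the lowest geometric mean, 8.16 FPKM, and the muscle values overlapped those of liver and WAT. Muscle was below brain by a log2 difference of 0.65 (SE 0.23, adjusted p = 0.0207, limma), below WAT by 0.68 (adjusted p = 0.0222, limma) and below liver by 0.52 (adjusted p = 0.0644, limma). Brain, liver and WAT did not differ beyond their spread, with differences of 0.13 for brain against liver (95% interval -0.36 to 0.63) and of -0.02 for brain against WAT (-0.52 to 0.47). Leaving out 1 set of groups ended some of these calls: muscle against liver without KO_AL, KO_DR or WT_DR (adjusted p = 0.189, 0.135 and 0.136, limma), muscle against brain without KO_DR (0.119) and muscle against WAT without WT_DR (0.193). The Mtor gene encloses Angptl7 on the opposite strand, and the strand setting of the counting is not given in the sources used here.

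Rptor, on chromosome 11 (119602905 to 119899576, plus strand), encodes raptor, the subunit that defines mTORC1. In brain it stood at 21.7 FPKM in WT_AL, 14.3 in WT_DR, 18.6 in KO_AL and 30.0 in KO_DR. The other tissues ranged from 6.58 to 8.35 in liver, 6.01 to 8.71 in muscle and 7.59 to 10.7 in WAT, so all 4 brain values lay above all 12 others. Brain was higher than liver by 1.45 (SE 0.22, adjusted p = 4.56e-05, limma), than muscle by 1.44 and than WAT by 1.19 on the log2 scale. None of these differences passed in WT_AL alone, where the authors' interval for brain ran from 0 to 49.4 FPKM. Liver, muscle and WAT did not differ beyond their spread.

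Rictor, on chromosome 15 (6708379 to 6800401, plus strand), encodes the subunit that defines mTORC2 and was the lowest of the 10 genes in liver, muscle and WAT. Its FPKM in WT_AL, WT_DR, KO_AL and KO_DR was 1.62, 2.09, 1.30 and 1.496 in liver, 3.37, 2.06, 1.68 and 1.58 in muscle, 1.40, 1.22, 1.91 and 0.802 in WAT, and 2.40, 3.25, 3.45 and 3.11 in brain. Brain was above WAT by 1.18 (SE 0.29, adjusted p = 0.00239, limma) and above liver by 0.88 (adjusted p = 0.0137, limma), but not detectably above muscle (0.52, 95% interval -0.10 to 1.14). That last difference was 0.85 without the WT_AL groups (adjusted p = 0.0261, limma). Muscle was above WAT by 0.66 (adjusted p = 0.0654, limma), a call that was lost without KO_DR, WT_AL or WT_DR (adjusted p = 0.196, 0.206 and 0.170, limma). Within a group, FPKM of Rptor exceeded that of Rictor by 2.42 to 13.4 times, and the 95% interval of this ratio lay above 1 in 14 of 16 groups.

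Deptor, the mTOR-binding inhibitor on chromosome 15 (55112317 to 55259271, plus strand), was lowest in brain, where Rptor was highest. In liver its FPKM was 28.6 in WT_AL, 24.7 in WT_DR, 27.3 in KO_AL and 26.8 in KO_DR, the narrowest range of any gene and tissue here except Rps6kb1 in muscle. Muscle had 10.97, 16.3, 23.0 and 21.4, WAT 10.1, 11.3, 10.0 and 7.61, and brain 2.82, 2.33, 3.56 and 2.53. No brain value reached any value of another tissue. All 6 tissue pairs differed, with brain below liver by a log2 difference of 3.23 (SE 0.22, adjusted p = 1.16e-08, limma), below muscle by 2.59 and below WAT by 1.77, and liver above WAT by 1.46. In the order liver, muscle, WAT, brain every step thus passed, the smallest step being liver over muscle at 0.64 (adjusted p = 0.0220, limma). Without the WT_AL groups that step was 0.39 and did not pass (adjusted p = 0.145, limma). Muscle over WAT was 0.82 (adjusted p = 0.00567, limma), but the ranges overlapped (10.97 in WT_AL muscle and 11.3 in WT_DR WAT). That call was lost in WT_AL alone, by the authors' intervals. The ratio of Deptor to Mtor was 1.90 to 2.65 in liver and 0.142 to 0.315 in brain. The Deptor entry runs 12400 bases past the annotated gene on its 5′ side, over the opposite-strand transcript Gm9920.

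**Figure D2:**
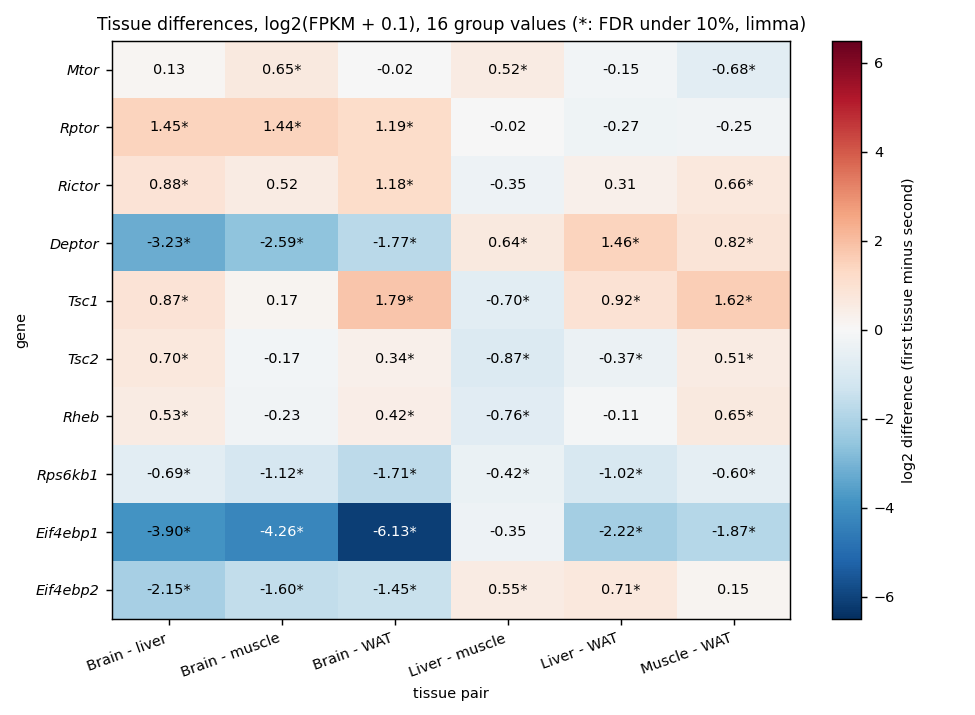
Differences between tissues for the 10 genes (rows) in 6 tissue pairs (columns), as log2(FPKM + 0.1) of the first tissue minus the second, with colour and printed values, and an asterisk where the limma test passed an FDR of 10%. Eif4ebp1 (-6.13 for brain against WAT) and Deptor (-3.23 for brain against liver) reach furthest below 0, and the brain columns of Rptor are positive.

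Tsc1, on chromosome 2 (28641228 to 28691167, plus strand), and Tsc2, on chromosome 17 (24595816 to 24632630, minus strand), encode hamartin and tuberin, the scaffold and the GTPase-activating subunit of the TSC complex. The pair did not follow the same order. Tsc1 was lowest in WAT, at 2.67, 3.05, 3.42 and 2.90 FPKM in WT_AL, WT_DR, KO_AL and KO_DR, against 4.38 to 7.28 in liver, 8.65 to 10.1 in muscle and 9.38 to 12.2 in brain. WAT lay below brain by a log2 difference of 1.79 (SE 0.18, adjusted p = 1.26e-06, limma), below muscle by 1.62 and below liver by 0.92, and none of the WAT values reached those of another tissue. In WT_AL alone, by the authors' intervals, the difference from brain passed, and those from muscle and liver did not. Tsc2 was lowest in liver instead, at 4.95 to 7.51 FPKM, with 6.36 to 8.16 in WAT, 8.14 to 10.8 in brain and 8.65 to 12.2 in muscle. Liver lay below muscle by 0.87 (adjusted p = 0.000664, limma), below brain by 0.70 (adjusted p = 0.00235, limma) and below WAT by 0.37 (adjusted p = 0.0876, limma), the last of which was lost without KO_AL, KO_DR or WT_DR (adjusted p = 0.226, 0.295 and 0.196, limma). Muscle exceeded WAT by 0.51 and brain exceeded WAT by 0.34, and these also depended on KO_AL and WT_DR (adjusted p without them 0.119 and 0.124 for muscle, 0.172 and 0.218 for brain, and 0.237 for brain without KO_DR, limma). The ratio of Tsc1 to Tsc2 was accordingly 0.331 to 0.480 in WAT and 0.709 to 1.15 in the other tissues, with a 95% interval below 1 in 1 of the 4 WAT groups. The Tsc2 entry runs 45866 bases past the annotated gene, over the opposite-strand gene Pkd1.

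Rheb, on chromosome 5 (24802823 to 24842624, minus strand), encodes the GTPase that activates mTORC1. It ranged from 20.4 to 26.4 FPKM in liver, 20.9 to 31.7 in WAT, 27.0 to 48.7 in brain and 33.3 to 43.1 in muscle. Muscle exceeded liver by 0.76 (SE 0.20, adjusted p = 0.00414, limma) and WAT by 0.65 (adjusted p = 0.0119, limma), and brain exceeded liver by 0.53 (adjusted p = 0.0244, limma). Brain and muscle were not separated (-0.23, 95% interval -0.65 to 0.19) unless KO_AL was left out (-0.40, adjusted p = 0.0904, limma), nor were liver and WAT (-0.11, -0.53 to 0.31). Brain was above WAT by 0.42 (adjusted p = 0.0702, limma), which was lost without KO_AL, KO_DR or WT_DR (adjusted p = 0.501, 0.126 and 0.172, limma), and in WT_AL alone, by the authors' intervals, the difference had the other sign (-0.23, SE 0.70). In every one of the 16 groups Rheb was the more abundant of Rheb and Mtor, by 1.30 to 7.003 times, with the interval above 1 in 5 groups.

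Among the effectors, Rps6kb1, on chromosome 11 (86498871 to 86544805, minus strand), rose in the order brain, liver, muscle, WAT. Its FPKM was 4.51 to 5.75 in brain, 7.63 to 10.2 in liver, 10.5 to 11.9 in muscle and 13.0 to 20.7 in WAT, and no range overlapped the next. All 6 pairs passed, from 0.42 between liver and muscle (SE 0.17, adjusted p = 0.0459, limma) to 1.71 between brain and WAT (adjusted p = 9.22e-07, limma). The step from liver to muscle was lost without KO_AL or KO_DR (adjusted p = 0.164 and 0.188, limma). The authors' intervals for this gene were wide, and none of the 6 differences passed in WT_AL alone. Its entry runs 14214 bases past the gene, over the opposite-strand gene Rnft1.

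Eif4ebp1, on chromosome 8 (27260329 to 27276674, plus strand), encodes 4E-BP1 and had the widest range of the 10 genes. In WAT its FPKM was 306 in WT_AL, 333 in WT_DR, 171 in KO_AL and 295 in KO_DR. Liver had 41.8, 56.7, 64.7 and 69.9 in the same order, muscle 64.0, 47.4, 69.2 and 135, and brain 3.76, 2.51, 6.35 and 3.20. Every WAT value lay above every value of another tissue, and every brain value below. Brain was lower than WAT by a log2 difference of 6.13 (SE 0.33, adjusted p = 2.07e-09, limma), than muscle by 4.26 and than liver by 3.90. WAT exceeded liver by 2.22 and muscle by 1.87, while liver and muscle did not differ detectably (-0.35, 95% interval -1.06 to 0.36). These 5 calls held under every setting tried. Among the entries with an FPKM of at least 1 in a group, Eif4ebp1 stood at a median percentile of 97.6 in WAT and 23.6 in brain.

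Eif4ebp2, on chromosome 10 (61428491 to 61452661, minus strand), encodes 4E-BP2, another eIF4E-binding repressor. Its FPKM in WT_AL, WT_DR, KO_AL and KO_DR was 61.2, 44.5, 79.0 and 61.2 in liver, 31.9, 42.9, 42.5 and 48.8 in muscle, 35.5, 56.4, 26.9 and 34.3 in WAT, and 10.3, 9.99, 19.7 and 16.3 in brain. As with Eif4ebp1, all brain values were the lowest. Brain was below liver by 2.15 (SE 0.27, adjusted p = 6.85e-06, limma), below muscle by 1.60 and below WAT by 1.45 on the log2 scale, whereas muscle and WAT were not separated (0.15, 95% interval -0.43 to 0.74). Liver stood above WAT by 0.71 and above muscle by 0.55 (adjusted p = 0.0377 and 0.0933, limma), and both calls were lost without KO_AL, KO_DR or WT_AL (adjusted p of 0.115 to 0.218 for WAT and 0.154 to 0.314 for muscle, limma). Both were also lost in WT_AL alone, by the authors' intervals. The call over muscle was lost at an FDR of 5%, after centring on the median and without the FPKM minimum as well (adjusted p = 0.181 and 0.143 for the last 2, limma).

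The balance of the 4E-BP genes consequently turned over between tissues. Brain had 0.196 to 0.367 Eif4ebp1 FPKM for each Eif4ebp2 FPKM, liver 0.683 to 1.28, muscle 1.11 to 2.77 and WAT 5.91 to 8.61. The 95% interval of the ratio lay above 1 in all 4 WAT groups and in 2 of the muscle groups, and below 1 in 3 of the brain groups. Eif4ebp2 was thus the more abundant of the pair in brain and Eif4ebp1 in WAT, and in liver the interval held 1 in all 4 groups.

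**Figure D3:**
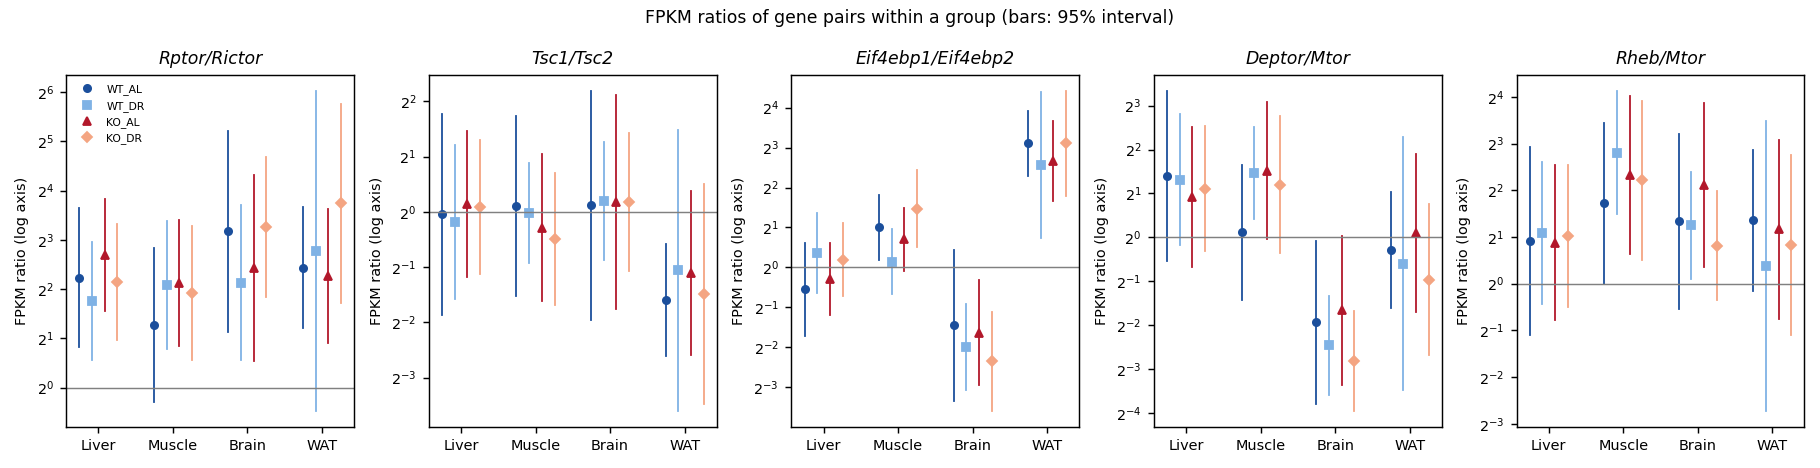
FPKM ratios of 5 gene pairs within each of the 16 groups on a log axis, with 95% intervals from the authors' intervals and a line at a ratio of 1. Eif4ebp1/Eif4ebp2 climbs from 0.196 in the lowest brain group to 8.61 in the highest WAT group, Deptor/Mtor is lowest in brain, and Tsc1/Tsc2 is lowest in WAT.

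Across the 16 group values, which share their tissues, log2(FPKM + 0.1) of Eif4ebp2 followed Deptor (Pearson's r = 0.93) and that of Eif4ebp1 followed Rps6kb1 (r = 0.92). Rptor ran against Deptor (r = -0.89) and against Eif4ebp2 (r = -0.81). The entries with the pattern most like each gene were Rab3gap1, Slc29a4 and the joined entry of Cpne7 and Mir7080 for Rptor (r of 0.95 to 0.97), Acadvl, Stbd1 and Gm14706 for Deptor (0.97 to 0.98), Nfkb2, Cd300lg and Cped1 for Eif4ebp1 (0.98 for all) and Extl1, Cipc and Ppargc1a for Tsc1 (0.97 to 0.99). For Rps6kb1 they were Abhd5, Lum and Me1 (0.96 to 0.97), for Eif4ebp2 Ctdsp1, 1110054M08Rik and the joined entry of Etfb and Mir7051 (0.95 to 0.97), and for Tsc2 Parp8, 4833439L19Rik and Slc41a1 (0.92 to 0.93). Rictor was most like Usp45, Dopey1 and 9330151L19Rik (0.91 for all), Rheb most like Ube3b, Tesk1 and Nr4a1 (0.89 to 0.91) and Mtor most like Ctnnbl1, Glns-ps1 and Gla (0.85 to 0.87). An r above 0.8 was reached by 2770 entries for Rptor and by 16 for Mtor, which makes a shared tissue pattern common for the one and rare for the other. These values describe tissue patterns, and no test was made of them.

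Within a tissue, the question was whether the loss of IRS1, DR or both shifted the pathway genes. A two-sided Wald test was applied to each log2 FPKM difference, taking the SE from the authors' intervals, with Benjamini-Hochberg adjustment over all entries tested in that tissue and comparison and an FDR of 10%. All 10 genes were tested in every tissue and comparison. Of 40 tests each, 0 passed for KO_AL against WT_AL, 0 for WT_DR against WT_AL, 1 for KO_DR against WT_DR, 0 for KO_DR against KO_AL and 0 for the interaction of genotype and diet. At an unadjusted p under 0.05 the counts were 2, 0, 1, 1 and 1. Over all entries, the share called for KO_AL against WT_AL was 0.316% in liver, 0.681% in muscle, 0.203% in brain and 1.29% in WAT. For WT_DR against WT_AL it was 0.236%, 1.40%, 0.224% and 0.570% in that order of tissues, and for KO_DR against WT_DR 0.288%, 2.23%, 1.16% and 0.283%. For KO_DR against KO_AL it was 0.611%, 0.500%, 0.365% and 0.707%, and for the interaction 0.0860%, 0.371%, 0.396% and 0.121%. At these rates few or no calls among 10 genes are what the background gives. The intervals were also wide: in 151 of the 160 differences between groups of a tissue, the 95% interval reached a 2-fold rise or a fall to 0.5 of the level. A change of that size was thus not excluded for most of them, whether or not they passed.

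**Figure D4:**
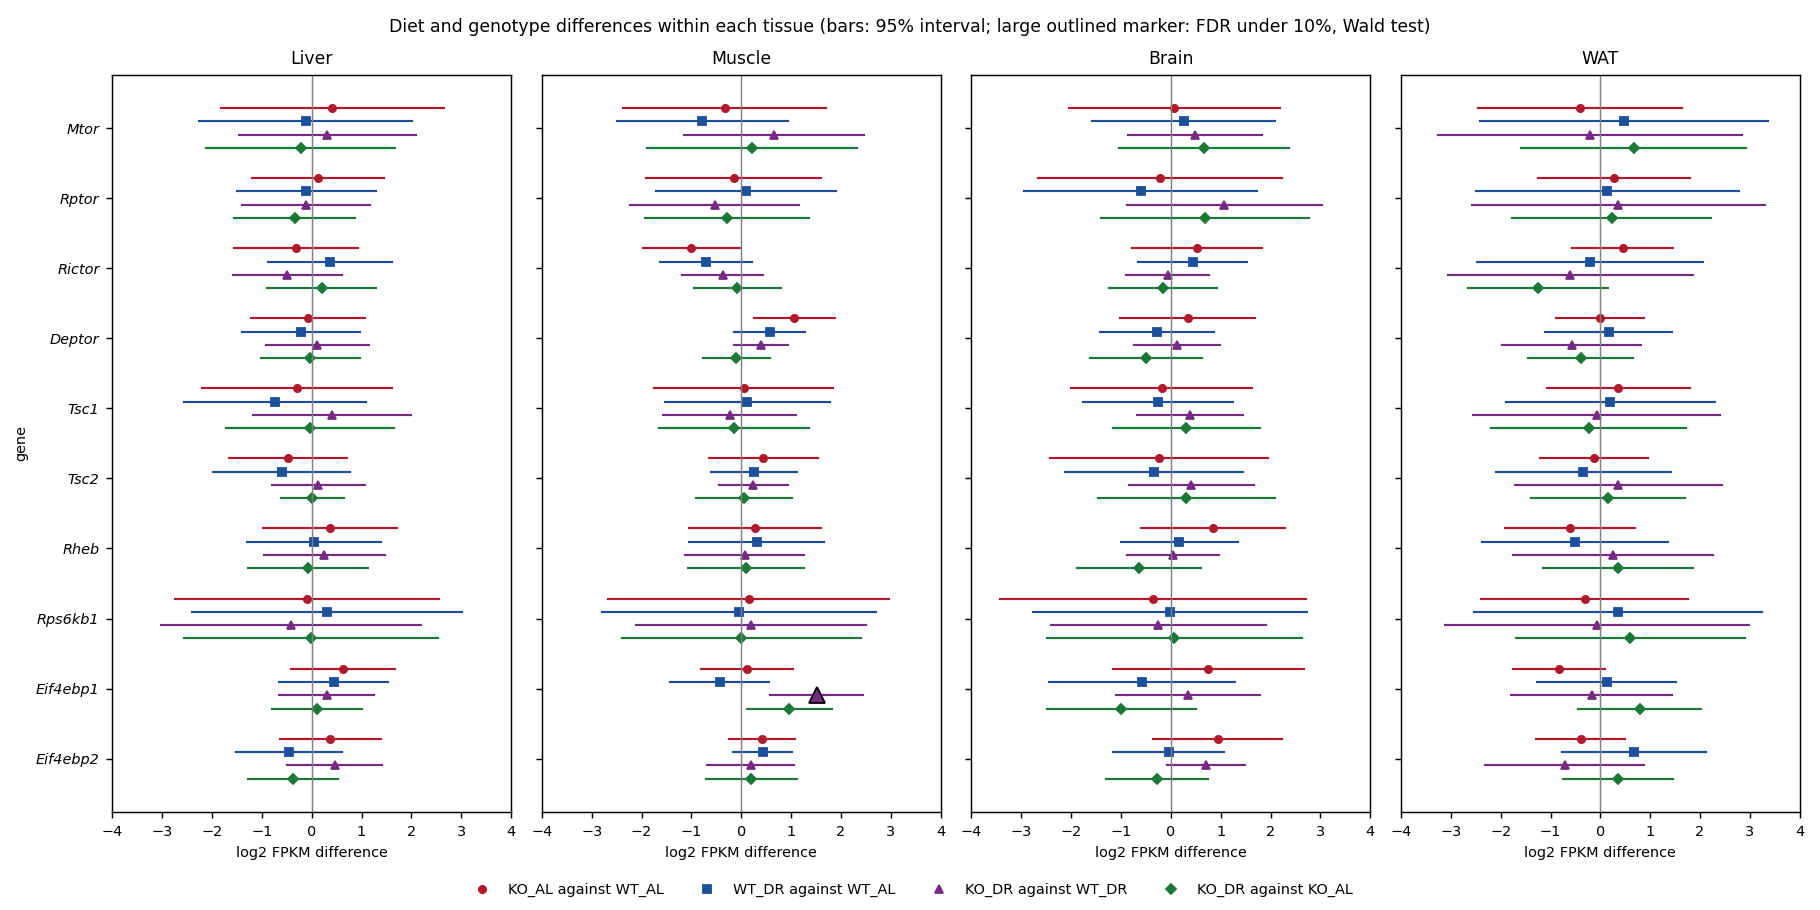
Log2 FPKM differences of the 10 genes in 4 comparisons (colours and symbols) within each tissue (panels), with 95% intervals. The large outlined triangle, Eif4ebp1 in muscle for KO_DR against WT_DR (1.51), is the single difference that passed an FDR of 10%, and most other bars cross 0.

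In KO_AL against WT_AL, the largest differences were in muscle. Deptor had 23.0 FPKM (authors' interval 14.8 to 31.2) in KO_AL and 10.97 (5.96 to 15.99) in WT_AL, a log2 difference of 1.07 (unadjusted p = 0.0107, adjusted p = 0.771, Wald test). Rictor had 1.68 and 3.37, a difference of -1.01 (unadjusted p = 0.0429, Wald test). Eif4ebp2 in brain (19.7 and 10.3 FPKM, 0.94), Rheb in brain (48.7 and 27.0 FPKM, 0.85) and Eif4ebp1 in WAT (171 and 306 FPKM, -0.84) followed, and none of these reached an unadjusted p under 0.05. The median difference of the 10 genes was 0.03 in liver, 0.13 in muscle, 0.20 in brain and -0.23 in WAT, beside 0.16, -0.05, 0.13 and -0.06 over all entries tested.

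In WT_DR against WT_AL no difference reached an unadjusted p under 0.05. The differences ran from -0.78 (Mtor in muscle, 5.88 and 10.1 FPKM) to 0.67 (Eif4ebp2 in WAT, 56.4 and 35.5 FPKM). The median over the 10 genes was -0.11 in liver, 0.11 in muscle, -0.15 in brain and 0.15 in WAT, beside 0.03, -0.06, -0.08 and -0.17 over all entries. Tsc1 (4.38 and 7.28 FPKM) and Tsc2 (4.95 and 7.51) were both lower in liver, by 0.73 and 0.60 on the log2 scale, and Deptor was higher in muscle (16.3 and 10.97, 0.57), none of which passed.

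In KO_DR against WT_DR the gene that passed was Eif4ebp1 in skeletal muscle. Its FPKM was 135 (authors' interval 70.4 to 200) in KO_DR and 47.4 (25.9 to 69.0) in WT_DR, with 69.2 in KO_AL and 64.0 in WT_AL, so that KO_DR stood above the other 3 groups and WT_DR below them. The rise was 2.85-fold (log2 difference 1.51, SE 0.48, unadjusted p = 0.00150, adjusted p = 0.0748, Wald test), in a comparison in which 2.23% of 14021 entries passed. In the other tissues the same comparison gave 0.30 in liver (69.9 and 56.7 FPKM), 0.35 in brain (3.20 and 2.51) and -0.18 in WAT (295 and 333). The muscle difference exceeded that of liver by 1.21 (95% interval -0.13 to 2.55), of brain by 1.16 (-0.55 to 2.88) and of WAT by 1.69 (-0.18 to 3.55). None of these differences between tissues, which were tested after the values had been seen, passed (adjusted p = 1.00 each, Wald test). Eif4ebp2 in muscle was at 48.8 and 42.9 FPKM (0.19).

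Several values move with this result. The 6 adipose markers summed to 1320 FPKM in WT_AL muscle, 369 in WT_DR, 1072 in KO_AL and 1332 in KO_DR, which is 6.78%, 1.71%, 8.13% and 8.04% of the sum in WAT of the same mice groups, and Eif4ebp1 was highest in WAT. With that share of the WAT value taken off, Eif4ebp1 in muscle was 43.3, 41.8, 55.3 and 112 FPKM, and KO_DR exceeded WT_DR by 2.67-fold, but the difference no longer passed (adjusted p = 0.446, Wald test). The 6 liver markers summed to 42.3, 2009, 124 and 207 FPKM in the muscle of the 4 groups. Of these sums Cyp2e1 made up 30.5, 102, 95.4 and 146 FPKM, and it stood at 865 to 1471 FPKM in WAT. Taking off the liver share as well left a 2.74-fold difference (adjusted p = 0.642, Wald test). In both tests the SD of the full FPKM was kept, so the SE rose from 0.48 to 0.56 and 0.57 as the FPKM was lowered. What part of the result came from adipose or liver RNA was not tested. The 5 red blood cell markers summed to 950, 1553, 11582 and 20283 FPKM, with no marker of these 3 lists at 0 in muscle. The adipose, epithelial and brain lists were highest in KO_DR and lowest in WT_DR, as Eif4ebp1 was. The 5 epithelial markers summed to 9.28 FPKM in WT_AL, 7.15 in WT_DR, 11.5 in KO_AL and 34.8 in KO_DR, with none at 0. The 6 brain markers summed to 38.4, 6.73, 28.1 and 74.8 FPKM in the same order, nearly all of it from the myelin gene Mbp (36.4, 6.46, 25.4 and 74.7), while Syt1 and Gfap were listed at 0 in KO_DR. The B cell markers summed to 166, 150, 271 and 160 FPKM and the macrophage markers to 88.8, 55.0, 103 and 35.1. The part of the red blood cell, epithelial, brain, B cell and macrophage markers in the result was not tested. The call was also absent at an FDR of 5%, without the FPKM minimum (adjusted p = 0.102, Wald test) and with a t distribution (adjusted p = 1.00, Wald test).

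The rest of the KO_DR against WT_DR comparison held differences from -0.72 (Eif4ebp2 in WAT, 34.3 and 56.4 FPKM) to 1.07 (Rptor in brain, 30.0 and 14.3 FPKM), which did not pass. In brain 8 of the 10 genes were higher in KO_DR, with a median of 0.37, where the median of all 15262 entries was 0.23 and 64.9% of entries were higher. The median was 0.20 in liver, 0.19 in muscle and -0.13 in WAT, beside 0.09, 0.04 and 0.09 over all entries.

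In KO_DR against KO_AL, a comparison that shares the KO_DR group with the one before, Eif4ebp1 in muscle differed by 0.97 (135 and 69.2 FPKM, unadjusted p = 0.0273, adjusted p = 1.00, Wald test). The largest other differences were for Rictor in WAT (0.802 and 1.91 FPKM, -1.25) and Eif4ebp1 in brain (3.20 and 6.35 FPKM, -0.99), with neither at an unadjusted p under 0.05. The medians over the 10 genes were -0.03 in liver, 0.03 in muscle, -0.04 in brain and 0.28 in WAT, beside -0.03, 0.03, 0.03 and 0.01 over all entries. The interaction (KO against WT under DR, minus KO against WT under AL) was 1.40 for Eif4ebp1 in muscle (SE 0.67, unadjusted p = 0.0373, adjusted p = 1.00, Wald test) and had an unadjusted p above 0.05 for the other genes and tissues.

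Over the 8 genotype differences of a gene (KO against WT under AL and under DR in 4 tissues), Rheb was higher in the KO-labelled group in 7, and Eif4ebp1 and Eif4ebp2 in 6 each, while Rictor and Rps6kb1 were lower in 6 each. Over the 8 diet differences, Deptor was lower under DR in 6. Mtor, Tsc2, Rheb, Rps6kb1 and Eif4ebp1 were higher in 5, and the rest were split 4 to 4 or 5 to 3. Of all entries tested, 45.2% to 61.4% by tissue were higher in KO_AL than in WT_AL, and 52.9% to 64.9% in KO_DR than in WT_DR. For diet, 40.8% to 51.9% were higher in WT_DR than in WT_AL, and 47.4% to 52.9% in KO_DR than in KO_AL. Comparisons share groups and no test was made of these counts.

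The surroundings of the pathway were examined with 5 further lists, holding the other complex subunits, the amino acid sensing machinery, upstream kinases and stress genes, the downstream translation machinery and other mTORC1 targets. Without the 10 genes themselves these lists gave 366 to 372 tests per comparison. None passed in KO_AL against WT_AL, in KO_DR against KO_AL or in the interaction (Wald test, with 3, 4 and 4 at an unadjusted p under 0.05). In WT_DR against WT_AL 1 of 367 tests passed, downwards, with 10 at an unadjusted p under 0.05. It was 1 of 93 in muscle, where 1.40% of all entries passed. In KO_DR against WT_DR 5 of 366 passed upwards and 1 downwards, with 20 at an unadjusted p under 0.05. These were 4 of 94 tests in muscle, 1 of 94 in brain, 1 of 85 in liver and 0 of 93 in WAT, beside 2.23%, 1.16%, 0.288% and 0.283% of all entries, so counts this small are near the background and describe the genes named below, not the lists.

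Of these calls 5 were in skeletal muscle. Ddit4 encodes REDD1, a stress-induced protein that restrains mTORC1 through the TSC complex, and its muscle FPKM was 23.9 in WT_AL, 5.01 in WT_DR, 33.3 in KO_AL and 26.8 in KO_DR. WT_DR was the lowest group. It lay below WT_AL by a log2 difference of 2.26 (SE 0.70, adjusted p = 0.0949, Wald test), and KO_DR lay above it by 2.42 (SE 0.62, adjusted p = 0.00764, Wald test). The fall under DR was not called at an FDR of 5% or without the FPKM minimum (adjusted p = 0.125, Wald test). Nor was it called after centring on the median of all entries (adjusted p = 0.122, Wald test). The difference between KO_DR and WT_DR kept its call when the adipose share was taken off (adjusted p = 0.0285, Wald test).

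Slc3a2, the heavy chain of the amino acid transporters that carry leucine, had 10.2, 8.88, 14.2 and 16.4 FPKM in muscle of WT_AL, WT_DR, KO_AL and KO_DR. KO_DR exceeded WT_DR by 0.89 (SE 0.20, adjusted p = 0.000784, Wald test), and by 0.70 with the adipose share taken off (adjusted p = 0.0874, Wald test). Both groups labelled KO were above both labelled WT.

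Lpin1 encodes lipin 1, a phosphatidate phosphatase whose entry into the nucleus is controlled by mTORC1. In muscle it had 89.5, 42.6, 93.4 and 76.0 FPKM in the same order, and KO_DR was above WT_DR by 0.84 (SE 0.15, adjusted p = 4.88e-06, Wald test). In liver it had 29.6, 8.94, 41.9 and 48.9 FPKM, and KO_DR was above WT_DR by 2.45 (SE 0.48, adjusted p = 0.000175, Wald test), in a comparison in which 0.288% of entries passed. In both tissues WT_DR was the lowest group.

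Rrn3, which recruits RNA polymerase I to ribosomal RNA genes, had 6.60, 8.92, 5.995 and 6.28 FPKM in muscle and was 0.51 lower in KO_DR than in WT_DR on the log2 scale (SE 0.14, adjusted p = 0.0174, Wald test). In brain the call was for Eef2, the ribosomal translocase eEF2, at 398 FPKM in WT_AL, 238 in WT_DR, 820 in KO_AL and 661 in KO_DR. The difference between KO_DR and WT_DR was 1.48 (SE 0.45, adjusted p = 0.0901, Wald test), where 1.16% of entries passed. It was not called at an FDR of 5%, without the FPKM minimum (adjusted p = 0.122, Wald test) or after centring (1.25, adjusted p = 0.321, Wald test). In that order of groups the brain markers summed to 4906, 2524, 5806 and 5216 FPKM in brain. The red blood cell markers summed to 1032, 971, 9907 and 3475. Both sums had the group order of Eef2, and the other lists did not. Mbp was lower in WT_DR than in WT_AL (1380 and 3877 FPKM), whereas Snap25 was not (507 and 466). The part of these markers in the Eef2 difference was not tested.

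**Figure D5:**
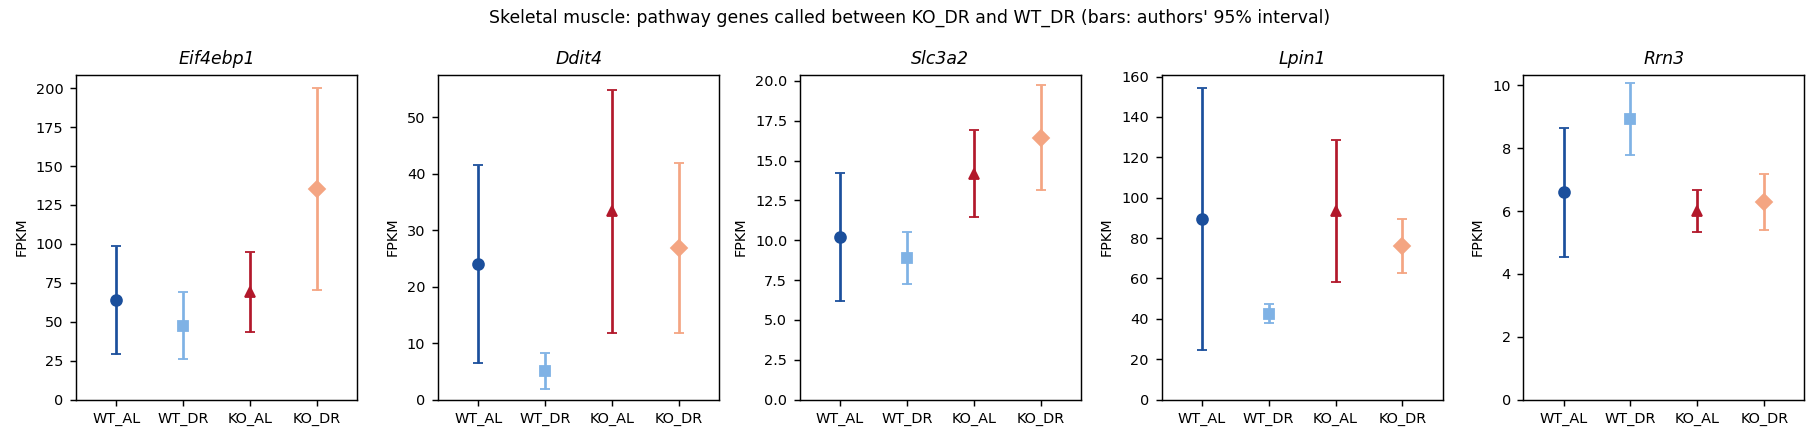
FPKM in skeletal muscle of the 5 pathway genes that passed for KO_DR against WT_DR, by group, with the authors' 95% interval (linear axes from 0). Eif4ebp1 is highest in KO_DR (135), whereas for Ddit4 (5.01), Lpin1 (42.6) and Rrn3 (8.92) the WT_DR value lies away from the other 3, though its interval overlaps that of WT_AL.

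In muscle, Slc3a2, Ddit4 and Lpin1 were lowest in WT_DR, as the adipose, epithelial and brain marker sums given above were, and Rrn3 was highest there. For KO_DR against WT_DR, Slc3a2, Ddit4, Lpin1 and Rrn3 all passed with the adipose share and with the adipose and liver shares taken off. The fall of Ddit4 in WT_DR against WT_AL, where the adipose markers summed to 369 and 1320 FPKM, was not tested with these shares taken off. These subtractions were chosen after seeing the data, kept the SD unchanged and left the other marker lists in place. The source of these differences was not tested. With a t distribution none of the 7 calls on the lists passed.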

How the data were processed

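RNA-seq of liver, skeletal muscle, brain and inguinal WAT was analysed in 16 groups from the table that the authors deposited. The authors trimmed Ion Proton reads with cutadapt 1.5, aligned them to GRCm38 with BBmap and estimated the FPKM values with Cuffdiff 2.2.1, using multi-read correction and geometric normalisation. The deposited FPKM is 1 value per gene and group, pooled over libraries, with a 95% interval, so the depth is unknown and nothing on the precision beyond that interval is given. Samples were grouped by their labels alone.

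An SD was taken as the distance from the FPKM to the upper end of its interval, divided by 2. Within a tissue, log2 FPKM differences without a pseudocount were tested with a two-sided Wald test (delta method) on entries with status OK, an FPKM above 0 in the groups compared and of at least 1 in one, with Benjamini-Hochberg adjustment and an FDR of 10%. These p values rest on the spread that the authors estimated, and no value per mouse was used. Tissues were compared with limma 3.58.1 (trend) in R 4.3.3 on log2(FPKM + 0.1), with the genotype and diet group as a block. The same mice may have given several tissues, and fold changes on this scale understate those of low genes. Python 3.11.15, numpy 2.4.6, pandas 2.3.3 and scipy 1.17.1 were used, and the tests were tried on simulated data.

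The 10 genes and the lists were chosen with earlier results of these data known. Named were the 10 genes, list genes called within a tissue, the 3 entries most correlated with each gene, and Irs1. Gene positions are those of GENCODE on GRCm38. The genes Akt1s1, Eif4ebp3, Eif4e3, Eif4g2, Eif4a1, Eif4a2 and Eef1a1 are found in joined entries and were not used.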

Additional observations from a re-analysis of the deposited data

How the results depend on the processing

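No paired analysis was possible because the table holds pooled group values, which carry no replicate numbers. For the same reason no library could be left out, and whole sets of groups were left out of the tissue comparisons instead. Every called difference kept its direction under the alternatives except Rheb in brain against WAT, at -0.23 by the Wald test within WT_AL. That test called 15 of the 60 tissue comparisons against 45 by limma, leaving out a set of groups called 36 to 42, an FDR of 5% 39, and 13 of the 45 held under every setting. Dividing each SD by the square root of the number of libraries called 3 differences in KO_AL against WT_AL, 2 in KO_DR against WT_DR, 2 in KO_DR against KO_AL and 1 for the interaction, Eif4ebp1 in muscle. Over all entries this setting called 1.41% to 5.94%, 1.13% to 18.5%, 2.69% to 7.39% and 0.803% to 5.15% by tissue for these 4 in turn, against 40 tests of the 10 genes each. The call in KO_DR against WT_DR fell to 0 at an FDR of 5%, without the minimum FPKM (more entries tested), with a t distribution, and with the adipose or the adipose and liver shares taken off, the last 2 of which were chosen after seeing the data. In those last 2 the SD was left unchanged, which widened the SE. The cause was not tested. With a minimum FPKM of 5, 33 of the 200 differences within tissues and 6 of the 60 between tissues were not tested. Each value rests on 2 or 3 libraries, and the width of the authors' intervals limits what could be detected.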

Other observations

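Between tissues, the list of downstream translation genes was lower in brain than in muscle for 20 of 28 genes and higher for 5 (limma, FDR of 10%), with a median log2 difference of -0.68, and was lower in brain than in liver for 15 and higher for 6 (median -0.56). The amino acid sensing genes lay the other way, higher in brain than in WAT for 18 of 31 and lower for 8 (median 0.60), and higher than in muscle for 17 and lower for 8 (median 0.47). The share of all entries called between these tissues, in either direction, was 76.0% to 80.9%. The median over all entries was 0.09 for brain against muscle, 0.14 for brain against liver and -0.001 for brain against WAT. No share of all entries by direction was taken, so these counts describe the lists without a background for direction.

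Ddit4 was lowest in WT_DR in all 4 tissues: 1.79 FPKM in liver against 3.06 to 5.43 in the other groups, 5.01 in muscle against 23.9 to 33.3, 15.1 in brain against 16.7 to 30.2, and 8.23 in WAT against 29.0 to 39.9. Lpin1 was likewise lowest in WT_DR in every tissue, at 8.94 FPKM in liver, 42.6 in muscle, 4.09 in brain and 35.1 in WAT, where KO_DR had 36.1. These groups may hold tissues of the same mice, the pattern was chosen after its values were seen, and the calls are those given for muscle and liver.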
